A study of Mus musculus with 7 samples.

Results

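The naive T cell transcription factors described here are 10 genes fixed by name, *Bach2*, *Lef1*, *Tcf7*, *Satb1*, *Foxp1*, *Sox4*, *Tox*, *Bcl11b*, *Myb* and *Ets1*. The rule sets no threshold on their measured values, but they were chosen with earlier results of these data known. Their counts beside the shares of all genes are therefore descriptions, not independent support. Of the 10 genes, 9 had a probe set assigned to them alone, among 18193 genes with such a probe set. All 9 were bright enough to be tested, among 10874 genes tested. *Tcf7* was not analysed here. The 9 genes were covered by 40 probe sets, of which 37 passed the intensity filter and 3 (2 of *Sox4* and 1 of *Foxp1*) did not.

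Expression was measured on 7 single-colour Affymetrix mouse arrays in T cells sorted from thymi of C57BL/6J background mice aged 4 to 6 weeks, in a study of PLZF in natural killer T (NKT) cell development. PLZF is the transcription factor encoded by *Zbtb16*, and NKT cells see lipid antigens held by CD1d. In the first group were stage 1 NKT cells from mice with a Valpha14 T cell receptor transgene (n = 2 arrays), an early stage sorted as CD1d tetramer-binding cells with low CD24 and without CD44 or NK1.1. The Luxoid group held cells of the same sort from PLZF-deficient Luxoid mutant mice that also carried the transgene (n = 3), and the third group held thymocytes with CD4 but not CD8 (CD4 single-positive, CD4SP) from wild-type mice without the transgene (n = 2). Mice were pooled for each array and the arrays are labelled biological replicates, so the p-values measure the spread between pools. Both NKT groups were compared with the same 2 CD4SP arrays. Those comparisons differ in cell type and transgene at once, and that of Luxoid NKT also in the Luxoid mutation, which cannot be told apart.

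The factors belong to the programme that turns a thymocyte into a quiescent recirculating T cell. TCF-1 (*Tcf7*) and LEF-1 are HMG-box proteins that act with beta-catenin and help commit thymocytes to the T lineage, Bcl11b maintains that commitment, and Satb1 arranges chromatin around T cell genes. Bach2 and Foxp1 restrain effector differentiation and keep naive T cells at rest, whereas Tox, Sox4 and Myb act during thymic selection and in developing NKT cells.

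The promoters of *Bach2*, *Satb1* and *Foxp1*, which passed the threshold as lower than CD4SP in both NKT groups (adjusted p under 0.05), and of *Myb*, which passed it as higher in both, are shown so that their sequence can be read beside the values that follow. Each line gives the 250 bases upstream of 1 start from a table of RefSeq promoters (GRCm38.p6), the most upstream of the starts that table lists for the gene, 5′ to 3′ on the gene's strand, from chr4:32417185-32417434 (plus strand) for *Bach2*, chr17:51833291-51833540 (minus) for *Satb1*, chr6:99520994-99521243 (minus) for *Foxp1* and chr10:21160985-21161234 (minus) for *Myb*. For *Bach2* and *Foxp1* that start lies inside the annotated gene, so the window is not at the start of the gene as annotated. Capitals mark matches on either strand to any of 6 short motifs, listed with their letters after the sequences.
Bach2: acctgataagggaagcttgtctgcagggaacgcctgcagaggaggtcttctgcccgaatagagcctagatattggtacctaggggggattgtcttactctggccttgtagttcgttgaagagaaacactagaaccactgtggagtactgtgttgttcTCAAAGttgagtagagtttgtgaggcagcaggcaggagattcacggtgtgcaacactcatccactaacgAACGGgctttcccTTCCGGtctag
Satb1: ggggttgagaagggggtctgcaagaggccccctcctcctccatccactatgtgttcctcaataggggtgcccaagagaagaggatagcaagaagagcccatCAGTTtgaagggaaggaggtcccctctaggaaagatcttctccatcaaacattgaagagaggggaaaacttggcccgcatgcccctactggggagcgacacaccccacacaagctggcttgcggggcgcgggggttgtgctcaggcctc
Foxp1: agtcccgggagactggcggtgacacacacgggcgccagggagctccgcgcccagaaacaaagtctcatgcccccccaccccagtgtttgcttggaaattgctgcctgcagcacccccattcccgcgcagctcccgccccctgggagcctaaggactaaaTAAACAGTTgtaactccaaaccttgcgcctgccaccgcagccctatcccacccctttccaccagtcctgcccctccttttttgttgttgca
Myb: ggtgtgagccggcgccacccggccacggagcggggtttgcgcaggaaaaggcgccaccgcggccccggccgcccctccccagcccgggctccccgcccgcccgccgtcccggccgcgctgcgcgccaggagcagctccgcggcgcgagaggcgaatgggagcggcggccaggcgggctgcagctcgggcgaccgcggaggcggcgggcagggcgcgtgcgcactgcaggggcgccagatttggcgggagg
The *Bach2* window held a TCF/LEF match (CTTTGA), an ETS match (CCGGAA) and a Myb match (AACNG). The *Foxp1* window held a forkhead match (TGTTTA) that overlaps its 2 Myb matches, the *Satb1* window held 1 Myb match and the *Myb* window held none of the 6 motifs. Of the 10 factors 8 had a promoter entry. The TCF/LEF letters occurred in 2 of them (*Bach2* and *Bcl11b*) and in 13.8% of 32851 mouse promoters of the same length, the ETS letters in 1 of 8 and in 12.0%, and the forkhead letters in 1 of 8 and in 12.0%. The Myb letters occurred in 6 of 8 and in 74.2%, while the Sox letters (CATTGT, 10.7% of promoters) and the Bach and Maf letters (TGAGTCA, 4.46%) occurred in none of the 8. These are matches of letters, not binding sites. The windows of *Tcf7* and *Bcl11b*, like those of *Bach2* and *Foxp1*, lie inside the annotated gene. Each factor gave 1 window, whereas the 32851 promoters include every start listed for a gene.

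Array medians lay between 79.6 and 83.7, and arrays of 1 group correlated at 0.984 to 0.992 over all 45037 probe sets. Stage 1 NKT with Luxoid NKT arrays reached 0.981 to 0.992, and NKT with CD4SP arrays 0.968 to 0.979. Geometric means of *Zbtb16* were 3098 (stage 1 NKT), 2388 (Luxoid NKT) and 73.5 (CD4SP; log2 differences from CD4SP of 5.40 and 5.02, or 4.75 and 4.08 averaged over its probe sets), so the CD4SP arrays, for which 1 label repeats the NKT sort while title, source and description say CD4SP, had it near the intensity filter of 82.0. The Luxoid mutation is a point mutation that ends the protein early, so its transcript level (log2 difference -0.38 ± 0.23 against stage 1 NKT, limma adjusted p = 0.607) does not check the genotype. The 3 Y-linked genes examined were low on the array numbered 1 of every group, *Kdm5d* at 6.49 to 11.7 against 758 to 2331 on the others, and the labels used here give no sex. Summed markers of conventional CD4SP thymocytes were 19906 to 21861 in CD4SP, 12464 to 13312 in stage 1 NKT and 13612 to 14105 in Luxoid NKT. Of the 6 genes summed, 4 passed the threshold as lower than CD4SP in each NKT group. *Il7r* went the other way without passing, at 5910 (stage 1 NKT), 5670 (Luxoid NKT) and 4473 (CD4SP). Of 9 markers of immature double-positive thymocytes 5, *Rag1* and *Rag2* among them (21.7 to 54.1), were under the intensity filter on all 7 arrays.

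Against CD4SP, stage 1 NKT cells had less *Bach2*, *Foxp1* and *Satb1* and more *Myb*. These 4 of 9 factors passed the threshold (limma, Benjamini-Hochberg adjusted p under 0.05 over all genes tested), against 14.9% of all genes tested. Counted by direction, 3 of 9 were lower against 4.08% of all genes, and 1 of 9 was higher against 10.8%. In Luxoid NKT cells against the same CD4SP arrays 6 of 9 passed, against 16.8% of all genes: *Bach2*, *Satb1*, *Foxp1* and *Bcl11b* were lower (4 of 9 against 5.51%) and *Myb* and *Tox* were higher (2 of 9 against 11.3%). The median log2 difference of the 9 factors was -0.34 for stage 1 NKT against CD4SP, where the median of all genes was 0.06, and -0.17 for Luxoid NKT against CD4SP, where it was 0.02. The stage 1 NKT and CD4SP arrays did not overlap for 8 of 9 factors against 60.2% of all genes, with 2 higher (against 36.6%) and 6 lower (against 23.6%). For Luxoid NKT and CD4SP this held for 6 of 9 against 46% of all genes, with 2 higher (against 25.4%) and 4 lower (against 20.6%). Markers of double-positive thymocytes also differed from CD4SP, 3 of the 4 tested being lower in stage 1 NKT and 2 of 4 in Luxoid NKT. *Dntt* averaged 58.5 (stage 1 NKT), 84.4 (Luxoid NKT) and 493 (CD4SP; limma adjusted p = 0.00121 and 0.00151) and *Cd8b1* 64.7, 76.6 and 245 (0.0136 and 0.0145), and the part of these cells in the differences of the factors was not tested. In bulk samples, fewer cells of a type and less RNA per cell cannot be told apart.

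**Figure D1:**
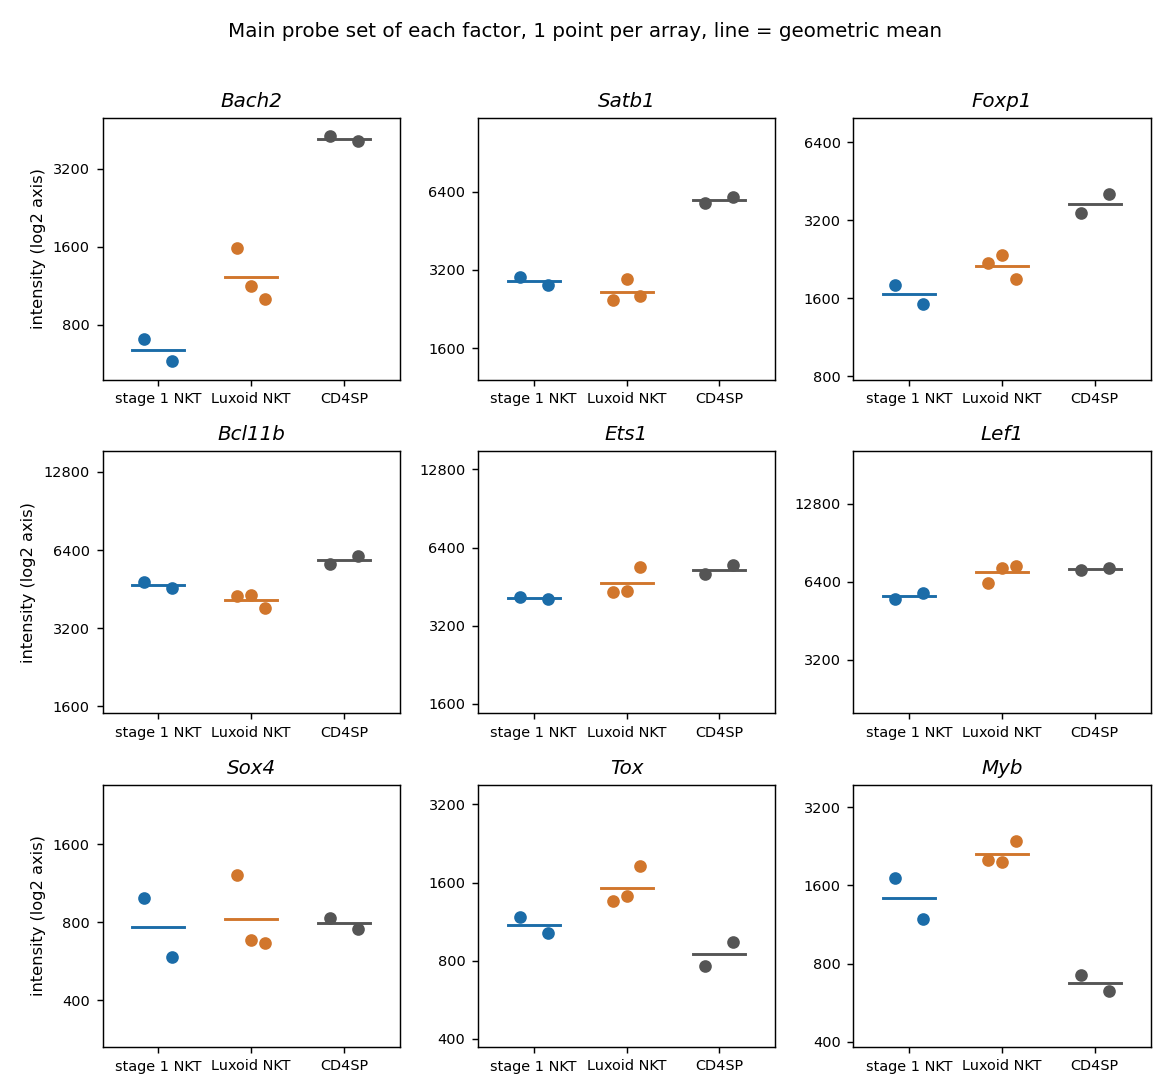
Intensity (log2 axis) of the brightest probe set of each of the 9 factors on every array, 1 point per array, with the group's geometric mean as a line. For *Bach2*, stage 1 NKT lies at 578 to 702, Luxoid NKT at 1005 to 1587 and CD4SP at 4079 to 4274, while the 3 groups of *Sox4* overlap.

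*Bach2*, a BTB and leucine-zipper repressor that holds back effector genes, had the widest span of the 9. Its brightest probe set (1445460_at) read 702 and 578 on the stage 1 NKT arrays, 1587, 1133 and 1005 on the Luxoid arrays, and 4274 and 4079 on the CD4SP arrays. The 3 groups did not overlap, with Luxoid NKT between the other two. Relative to CD4SP, *Bach2* was 6.55-fold lower in stage 1 NKT (log2 difference -2.71 ± 0.22 SE, limma adjusted p = 0.000139) and 3.43-fold lower in Luxoid NKT (-1.78 ± 0.20, adjusted p = 0.000638). Luxoid NKT was 1.91-fold above stage 1 NKT (0.93 ± 0.20, 95% interval 0.47 to 1.40, adjusted p = 0.0760), which missed the threshold. With the array number as a block, with an intensity trend in the variance and with a term for Y-linked expression this difference passed (limma adjusted p = 0.0248, 0.0460 and 0.0373). All 3 probe sets of *Bach2* were lower in both NKT groups (log2 differences of -3.19 to -2.71 and of -2.14 to -1.78, all past the threshold), and all 3 were above stage 1 NKT in Luxoid NKT by 0.83 to 1.34 without passing it.

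*Satb1* encodes a chromatin organiser that is abundant in thymocytes. On the brightest *Satb1* probe set (1416007_at) the intensity was 3013 and 2791 in stage 1 NKT, 2442, 2955 and 2529.8 in Luxoid NKT, and 5791 and 6119 in CD4SP. Both CD4SP arrays stood above all 5 NKT arrays, and the NKT groups overlapped. The gene was 2.05-fold lower in stage 1 NKT (-1.04 ± 0.15, limma adjusted p = 0.00321) and 2.26-fold lower in Luxoid NKT (-1.18 ± 0.14, adjusted p = 0.000785) than in CD4SP. Luxoid and stage 1 NKT differed by -0.14 (95% interval -0.46 to 0.18, adjusted p = 0.795). All 5 probe sets were lower in both NKT groups and past the threshold, but by different amounts: stage 1 NKT differed from CD4SP by -1.85 to -0.84 and Luxoid NKT by -2.20 to -1.03.

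*Foxp1* encodes a forkhead repressor needed for naive T cell quiescence. The brightest *Foxp1* probe set (1435222_at) gave 1809 and 1528 in stage 1 NKT, 2185, 2355 and 1907 in Luxoid NKT, and 3401 and 4051 in CD4SP. The groups did not overlap, and Luxoid NKT lay between the others as for *Bach2*. *Foxp1* was 2.23-fold lower in stage 1 NKT than in CD4SP (-1.16 ± 0.17, limma adjusted p = 0.00343) and 1.73-fold lower in Luxoid NKT (-0.79 ± 0.16, adjusted p = 0.0108). The Luxoid call was lost without CD4SP array 2 (adjusted p = 0.103). The difference between Luxoid and stage 1 NKT was 0.36 ± 0.16 (95% interval 0.000127 to 0.73, adjusted p = 0.431). All 7 probe sets that passed the filter were lower and past the threshold in both NKT groups, and all 7 were higher in Luxoid than in stage 1 NKT (0.25 to 0.67) without passing.

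*Bcl11b*, a zinc-finger factor that fixes T lineage identity, moved less. Intensities of its brightest probe set (1435227_at) were 4826 and 4582 in stage 1 NKT, 4259, 4286 and 3812 in Luxoid NKT, and 5638 and 6061 in CD4SP. The groups did not overlap, and here the Luxoid arrays were the lowest. Luxoid NKT was 1.42-fold below CD4SP (-0.51 ± 0.13, limma adjusted p = 0.0323). Leaving out any 1 array other than Luxoid array 2 ended that call (adjusted p from 0.0558 to 0.184). Stage 1 NKT differed from CD4SP by -0.31 (95% interval -0.64 to 0.02, adjusted p = 0.192) and Luxoid from stage 1 NKT by -0.19 (-0.49 to 0.11, adjusted p = 0.652). Luxoid NKT was below CD4SP in all 4 probe sets, 3 of them past the threshold, by -0.92 to -0.51. For 1 of these probe sets (1438784_at) the array numbered 1 was the highest in each group, by 0.89, 0.89 and 0.17 on the log2 scale in stage 1 NKT, Luxoid NKT and CD4SP.

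*Ets1* encodes an ETS-domain activator of T cell and NKT cell genes. The brightest *Ets1* probe set (1426725_s_at) gave 4118 and 4046 in stage 1 NKT, 4330.4, 4352 and 5378 in Luxoid NKT, and 5042 and 5463 in CD4SP. On this probe set stage 1 NKT was the lowest group, and Luxoid array 3 fell among the CD4SP arrays. No difference passed the threshold: stage 1 NKT against CD4SP was -0.36 (95% interval -0.73 to 0.01, limma adjusted p = 0.179), Luxoid NKT against CD4SP -0.17 (-0.51 to 0.17, adjusted p = 0.489) and Luxoid against stage 1 NKT 0.19 (-0.14 to 0.53, adjusted p = 0.704). All 4 probe sets were lower in both NKT groups than in CD4SP, and 1 of them (1422027_a_at, -0.51, limma adjusted p = 0.0401 over all probe sets) passed for Luxoid NKT. Outside the brightest probe set every Luxoid array lay below both CD4SP arrays. On 1422027_a_at Luxoid NKT (3027) averaged below stage 1 NKT (3160), with overlapping arrays.

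*Lef1* encodes the HMG-box relative of TCF-1. On the brightest *Lef1* probe set (1454734_at) the intensity was 5489 and 5780.1 in stage 1 NKT, 6349, 7224 and 7376 in Luxoid NKT, and 7101 and 7195 in CD4SP. Stage 1 NKT was below the other groups without overlap, and the Luxoid arrays spanned the CD4SP arrays. The differences were small and none passed: -0.34 for stage 1 NKT against CD4SP (95% interval -0.68 to -0.01, limma adjusted p = 0.160), -0.04 for Luxoid NKT against CD4SP (-0.34 to 0.27, adjusted p = 0.891) and 0.31 for Luxoid against stage 1 NKT (0.00239 to 0.61, adjusted p = 0.429). The sign of the Luxoid difference from CD4SP changed with the scaling, to 0.01 when each array was centred on its median. Both probe sets of *Lef1* were lower in stage 1 NKT than in CD4SP (-0.35 and -0.34) and higher in Luxoid than in stage 1 NKT (0.31 and 0.44).

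*Sox4*, an HMG-box factor of early thymocytes, showed the widest error. Intensities of its brightest probe set (1433575_at) were 993 and 587 in stage 1 NKT, 1219, 685 and 663 in Luxoid NKT, and 827 and 756 in CD4SP. The 3 groups overlapped, and on this probe set the array numbered 1 was the highest of each group. No difference passed: -0.05 for stage 1 NKT against CD4SP (95% interval -0.81 to 0.71, limma adjusted p = 0.934), 0.05 for Luxoid NKT against CD4SP (-0.64 to 0.75, adjusted p = 0.931; -0.02 after another quantile normalization) and 0.10 for Luxoid against stage 1 NKT (-0.59 to 0.80, adjusted p = 0.944). None of the 6 probe sets that passed the filter was called in any comparison. On 1419156_at, 1455867_at, 1419155_a_at and 1419157_at the array numbered 1 was instead the lowest of each group. The array numbered 1 was the highest of every group in 8 of 37 probe sets of the factors and the lowest in 6 of 37, while among 20360 probe sets these shares were 20.9% and 12.7%.

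*Tox* encodes an HMG-box factor needed for CD4 lineage and NKT cell development. The brightest *Tox* probe set (1425484_at) gave 1181 and 1018 in stage 1 NKT, 1361, 1418 and 1857 in Luxoid NKT, and 763 and 945 in CD4SP. The groups did not overlap, with Luxoid NKT the highest. Luxoid NKT exceeded CD4SP 1.80-fold in *Tox* (0.85 ± 0.18, limma adjusted p = 0.0145), a call lost without CD4SP array 1 (adjusted p = 0.121). Stage 1 NKT differed from CD4SP by 0.37 (95% interval -0.09 to 0.83, adjusted p = 0.264) and Luxoid from stage 1 NKT by 0.48 (0.06 to 0.90, adjusted p = 0.356). Against CD4SP, all 3 probe sets were higher in Luxoid NKT, by 0.35, 0.48 and 0.85, and 1 of them passed the threshold.

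*Myb* encodes an activator that thymocytes need at several steps, among them the birth of NKT cells. Its brightest probe set (1421317_x_at, a kind that can also bind related transcripts) read 1705 and 1192 in stage 1 NKT, 2011, 1969 and 2379 in Luxoid NKT, and 724 and 627 in CD4SP. The groups did not overlap, and all 5 NKT arrays stood above both CD4SP arrays. *Myb* was 2.12-fold higher in stage 1 NKT (1.08 ± 0.20, limma adjusted p = 0.00917) than in CD4SP, and Luxoid NKT exceeded CD4SP 3.13-fold (1.65 ± 0.19, adjusted p = 0.000564). The stage 1 NKT call was lost without stage 1 NKT array 1 (adjusted p = 0.0716) or CD4SP array 2 (0.0758). Luxoid NKT was above stage 1 NKT by 0.57 (95% interval 0.14 to 0.99, adjusted p = 0.263). The other 2 probe sets of *Myb*, which carry no such caution, also passed as higher in both NKT groups, so that the 3 spanned 1.08 to 1.48 for stage 1 NKT and 1.65 to 2.08 for Luxoid NKT.

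**Figure D2:**
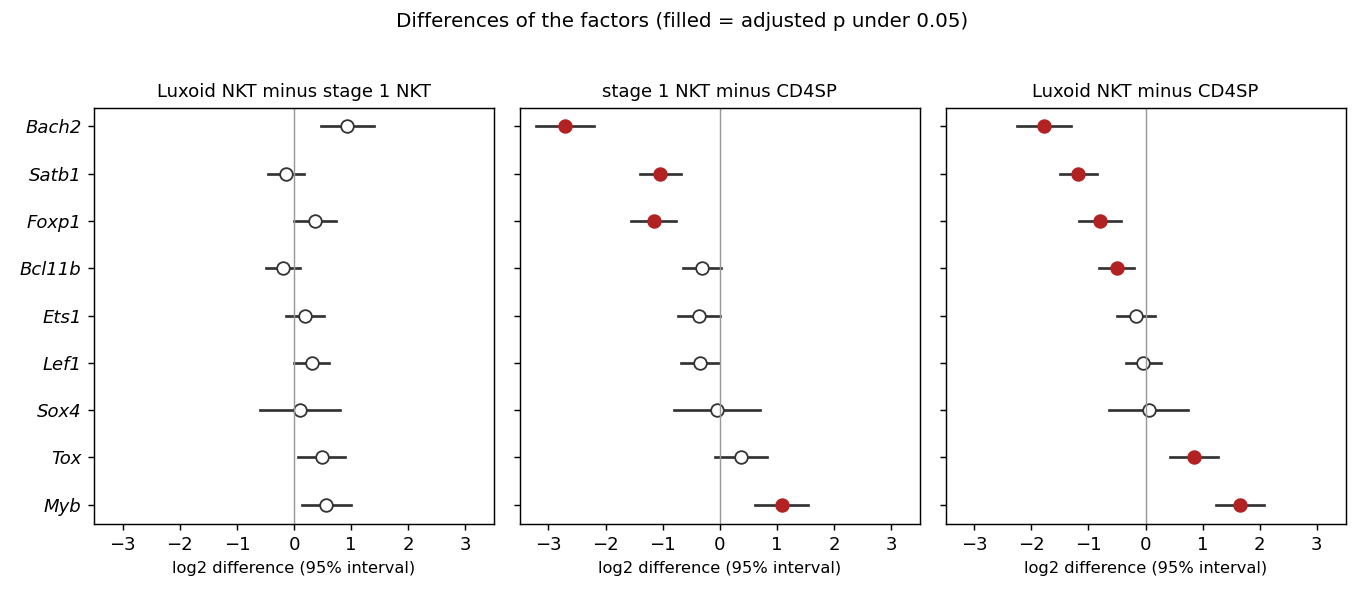
Log2 difference with its 95% interval for the brightest probe set of each factor in the 3 comparisons, filled where the adjusted p was under 0.05. No factor is filled for Luxoid NKT against stage 1 NKT, 4 are filled for stage 1 NKT against CD4SP and 6 for Luxoid NKT against CD4SP.

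The comparison of Luxoid with stage 1 NKT cells asks what changes in the same sorted population when PLZF is missing. By limma, 0 of 9 factors passed the threshold, against 1.55% of all genes (0.901% higher and 0.653% lower). At an unadjusted p under 0.05 there were 5 of 9 factors, all higher in Luxoid NKT (*Bach2*, *Myb*, *Tox*, *Lef1* and *Foxp1*), against 11.6% of all genes in either direction and 4.48% higher. Groups did not overlap for 7 of 9 factors against 26.7% of all genes, with 6 higher (against 10.1%) and *Bcl11b* lower (against 16.6%). The median difference of the 9 was 0.31, where that of all genes was -0.03. For markers of immature double-positive thymocytes the summed level was 945 to 1417 in stage 1 NKT, 1475 to 1728 in Luxoid NKT and 1806 to 1944 in CD4SP, with *Cd8a* past the threshold between the NKT groups among the 4 of 9 markers tested. Most of the summed level of both NKT groups came from *Rmnd5a*, whose geometric means were 763 (stage 1 NKT), 1015 (Luxoid NKT) and 802 (CD4SP). *Rmnd5a* read 1037 and 561 on the 2 stage 1 NKT arrays. It passed neither between the NKT groups (limma adjusted p = 0.579) nor against CD4SP (0.877 for stage 1 and 0.383 for Luxoid NKT). Another 5 of the 9 summed markers were under the intensity filter on all 7 arrays. The part of these markers in the differences of the factors was not tested.

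**Figure D3:**
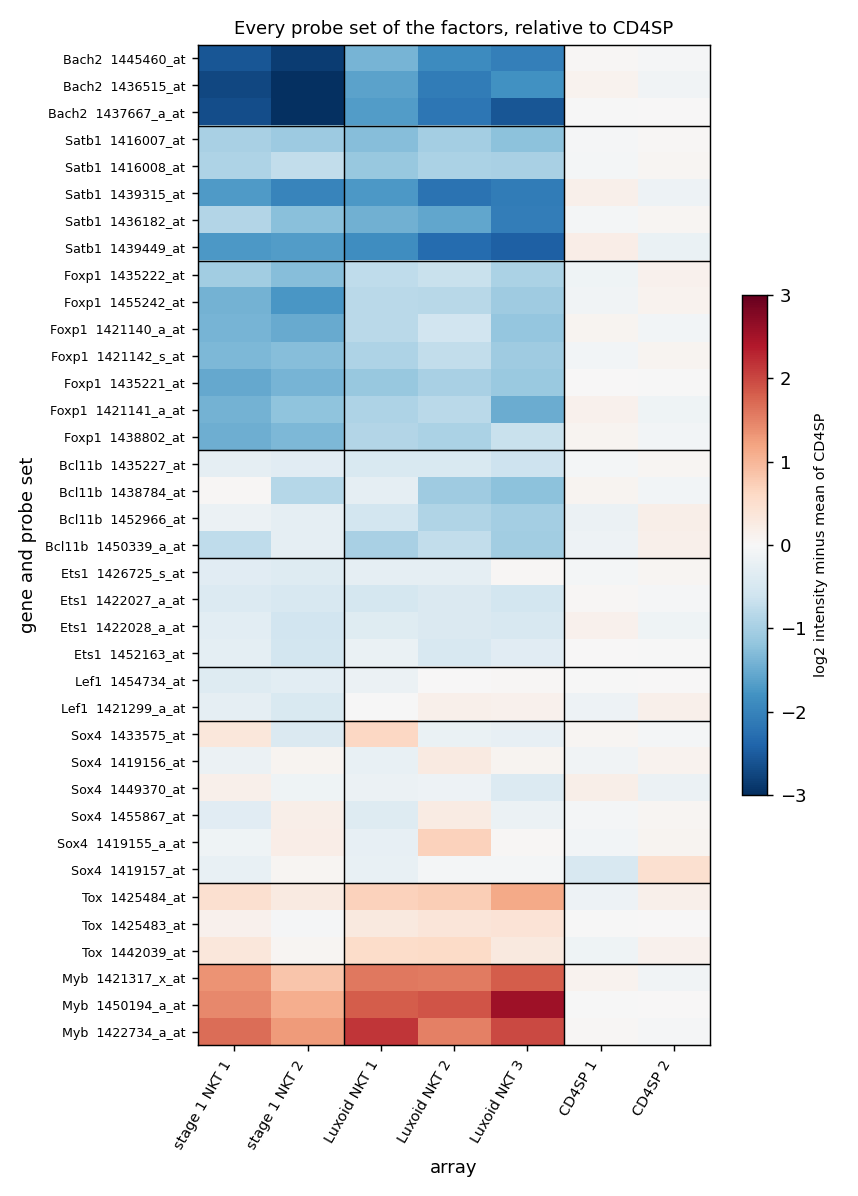
Colour gives the log2 intensity of each of the 37 probe sets that passed the filter on each array, less the mean of the 2 CD4SP arrays. All probe sets of *Bach2*, *Satb1* and *Foxp1* are lower and all 3 of *Myb* are higher on the NKT arrays, and the *Bach2* rows are deepest in stage 1 NKT.

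Over all probe sets, 0 of 37 of the factors passed for Luxoid against stage 1 NKT (1.15% of 20360 probe sets), 18 of 37 for stage 1 NKT against CD4SP (11.7%) and 23 of 37 for Luxoid NKT against CD4SP (14.1%). Probe sets of 1 gene share their transcripts and are not independent. *Bach2*, *Satb1*, *Foxp1*, *Bcl11b*, *Tox* and *Myb* had the same sign in all their probe sets in each comparison, whereas those of *Sox4* were divided. *Lef1* was divided for Luxoid NKT against CD4SP (1 higher and 1 lower), and *Ets1* for Luxoid against stage 1 NKT (3 higher and 1 lower).

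Relatives are other genes of the same families as the factors. Of 25 such genes 20 were tested, and against CD4SP 5 were higher and 1 lower in stage 1 NKT and 6 higher and 2 lower in Luxoid NKT (14.9% and 16.8% of all genes), with medians of -0.04 and 0.05. *Tox2*, a relative of *Tox*, averaged 820.2 (stage 1 NKT), 1203 (Luxoid NKT) and 79.5 (CD4SP), 10.3-fold and 15.1-fold above CD4SP (limma adjusted p = 0.000454 and 9.67e-05). Averaged over its probe sets, *Tox2* had log2 differences of 2.41 and 3.03 in place of 3.37 and 3.92. *Sox5*, another HMG-box gene, was 2.62-fold and 2.54-fold higher, while *Sox13*, which is also a marker of gamma delta T cells, was at least 3.21-fold higher in stage 1 NKT. *Foxp3*, the forkhead factor of regulatory T cells, was 2.79-fold and 2.68-fold lower than in CD4SP. The 6 markers of regulatory T cells went both ways against CD4SP, with 2 higher (*Ikzf2* and *Capg*) and 3 lower in stage 1 NKT and 2 higher and 4 lower in Luxoid NKT, *Foxp3* and *Ctla4* being lower in both. Their summed level, to which *Capg* contributed most in the NKT groups (2215 and 1847 against 417), was 4143 to 4997 in stage 1 NKT, 3840.5 to 5377 in Luxoid NKT and 3143 to 3726 in CD4SP, and their part in these differences was not tested. The Luxoid count for relatives fell from 8 to 5 without Luxoid array 3 or CD4SP array 1 and to 3 without CD4SP array 2. Between the NKT groups no relative passed by limma, and 2 of 20 had an unadjusted p under 0.05, against 11.6% of all genes.

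Partner proteins of the factors include beta-catenin, the Groucho family, small Maf proteins and the NuRD complex. Of 25 genes 22 were tested, 2 were higher in stage 1 NKT than in CD4SP (14.9% of all genes passed), and in Luxoid NKT 3 were higher and 1 lower (16.8% of all genes), with medians of 0.10 and 0.16. *Mafg*, a small Maf partner of Bach proteins, averaged 196.5 (stage 1 NKT), 138 (Luxoid NKT) and 93.3 (CD4SP). It was 2.11-fold and 1.48-fold above CD4SP (limma adjusted p = 0.00237 and 0.0251). No partner passed between the NKT groups by limma, and 1 of 22 had an unadjusted p under 0.05, against 11.6% of all genes. The Luxoid count of 4 fell to 2 without Luxoid array 1 or CD4SP array 1, to 1 without Luxoid array 2 and to 0 without CD4SP array 2, and the stage 1 NKT count of 2 fell to 1 without either stage 1 NKT array or CD4SP array 2.

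Genes of naive T cell traffic and quiescence other than the factors divided. Of 16 genes 15 were tested, and in each NKT group 6 were lower and 2 higher than in CD4SP (of all genes 4.08% and 5.51% were lower and 10.8% and 11.3% higher in stage 1 and Luxoid NKT), with medians of -0.55 in stage 1 NKT and -0.22 in Luxoid NKT. *Ccr7*, the receptor that guides naive T cells into lymph nodes, averaged 1824 (stage 1 NKT), 1939 (Luxoid NKT) and 4033 (CD4SP), and so was 2.21-fold and 2.08-fold lower (limma adjusted p = 0.00141 and 0.00103). *Actn1*, which encodes an actin cross-linker, was 3.63-fold and 2.98-fold lower. The 2 that were higher were *Ccr9*, a thymic and gut homing receptor (3.40-fold and 3.46-fold), and *Tob1*, an antiproliferative gene (2.49-fold and 2.06-fold). Averaged over its probe sets, *Tob1* differed by 0.69 on the log2 scale in stage 1 NKT in place of 1.32. The count of 8 for stage 1 NKT fell to 5 without stage 1 NKT array 1 or CD4SP array 2, and the count of 8 for Luxoid NKT fell to 5 without CD4SP array 1 and to 3 without CD4SP array 2, where *Tob1* lost its Luxoid call (adjusted p = 0.0605). None passed between the NKT groups by limma, and 3 of 15 had an unadjusted p under 0.05, against 11.6% of all genes.

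Other transcription factors of thymic T cells included 1 that differed between the NKT groups. *Bcl6*, a repressor best known in follicular helper T cells, averaged 154 (stage 1 NKT), 423 (Luxoid NKT) and 643 (CD4SP). It was 2.75-fold higher in Luxoid than in stage 1 NKT (1.46 ± 0.14, limma adjusted p = 0.00143) and 4.17-fold lower in stage 1 NKT than in CD4SP. It was the 1 gene of 18 tested, from a list of 20, that passed between the NKT groups, against 1.55% of all genes. At an unadjusted limma p under 0.05 there were 6 of 18, against 11.6% of all genes. The median difference of the 18 between the NKT groups was 0.28, where that of all genes was -0.03. Against CD4SP, 3 of the 18 were higher and 4 lower in stage 1 NKT, and 4 were higher and 4 lower in Luxoid NKT (of all genes 10.8% and 11.3% were higher and 4.08% and 5.51% lower), with medians of -0.12 and -0.04. *Nr4a1*, an early gene of T cell receptor signalling, was 4.37-fold and 3.05-fold lower in the NKT groups than in CD4SP. *Gfi1*, a transcriptional repressor, was higher than in CD4SP in both, 1.83-fold in stage 1 NKT and 2.57-fold in Luxoid NKT (limma adjusted p = 0.0111 and 0.000632). The stage 1 NKT count of 7 fell to 2 without stage 1 NKT array 1 and to 4 without either CD4SP array, and the Luxoid count of 8 fell to 5 without CD4SP array 1 and to 4 without CD4SP array 2.

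Factors of innate-like and effector lymphocytes were often higher in both NKT groups. Of 18 genes 15 were tested. By limma, in stage 1 NKT 10 were higher and 1 lower than in CD4SP, and in Luxoid NKT 9 were higher and 0 lower. Of all genes 10.8% and 11.3% were higher and 4.08% and 5.51% lower in stage 1 and Luxoid NKT. The medians of the list were 1.02 and 1.01. *Maf*, a factor of interleukin-4 expression, averaged 2743 (stage 1 NKT), 1432 (Luxoid NKT) and 215 (CD4SP), 12.7-fold and 6.66-fold above CD4SP. Averaged over its probe sets, *Maf* had log2 differences of 2.71 and 1.54 in place of 3.67 and 2.73. Between the NKT groups 2 genes were higher and 2 lower in Luxoid NKT, against 0.901% and 0.653% of all genes. At an unadjusted limma p under 0.05 there were 9 of 15, against 11.6% of all genes. *Lmo4*, a LIM-only cofactor, was 5.38-fold lower (limma adjusted p = 0.00435; 0.0766 and 0.0685 without stage 1 NKT array 1 or 2). *Rora*, a nuclear receptor, was 4.22-fold lower in Luxoid NKT (limma adjusted p = 0.00293; 0.0638 without stage 1 NKT array 2), and *Nfil3* was at least 1.88-fold higher (adjusted p = 0.00354; 0.0685 without stage 1 NKT array 2). *Hopx*, a small homeodomain protein, was 2.24-fold higher (adjusted p = 0.0457, up to 0.352 over the alternatives). The count of 4 between the NKT groups fell to 2 without stage 1 NKT array 1 and to 0 without array 2, and that of 11 for stage 1 NKT against CD4SP fell to 6 without stage 1 NKT array 1 and to 7 without CD4SP array 2.

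**Figure D4:**
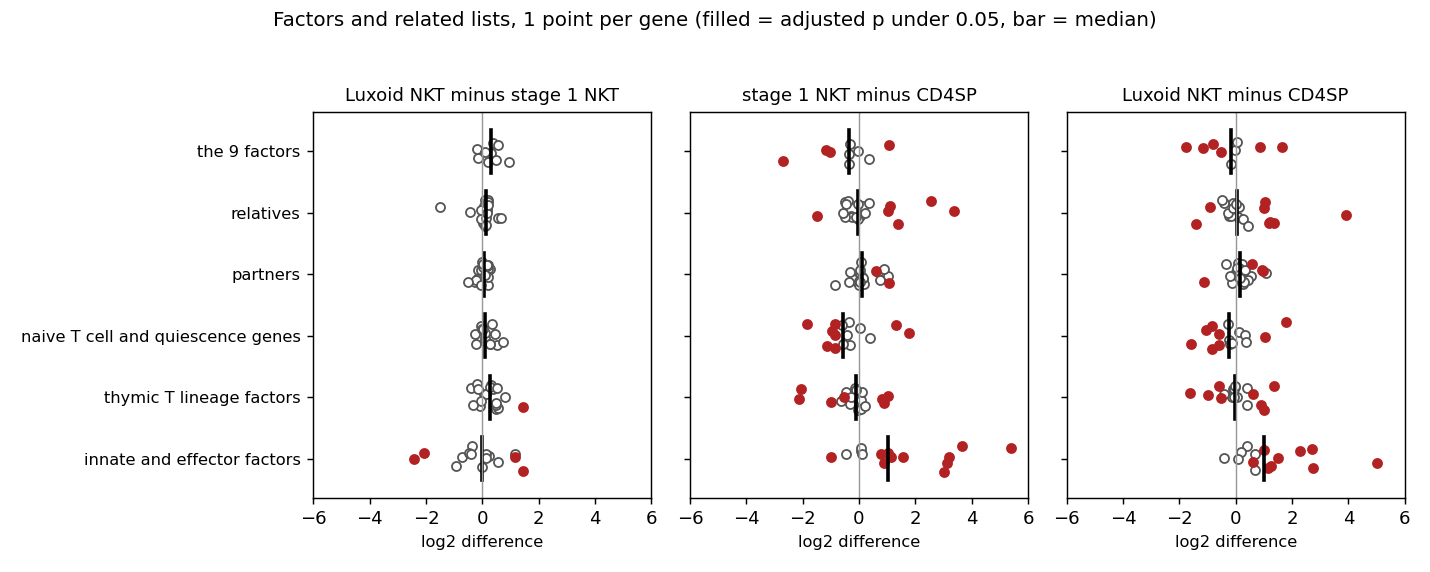
Log2 difference of each tested gene in the 9 factors and the 5 related lists, with the list's median as a bar and genes with an adjusted p under 0.05 filled. Against CD4SP the innate and effector factors have medians of 1.02 and 1.01, the naive T cell and quiescence genes -0.55 and -0.22, and the 9 factors -0.34 and -0.17.

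The genes whose pattern over the 7 arrays was most like each factor were sought among 1086 tested genes whose group means spanned at least 1 on the log2 scale. For *Bach2* these were *Nlrc5* (Pearson r = 0.995) and *Ift80* (0.991), for *Satb1* *Tmie* (0.988) and *Als2cl* (0.984), and for *Foxp1* *Mxd4* (0.985) and *Rgmb* (0.981). For *Myb* they were *Tnni1* (0.992) and *Hmga2* (0.991), for *Tox* *Wfs1* (0.980) and *Rhoc* (0.979), and for *Bcl11b* *Pou6f1* (0.988) and *Lypd6b* (0.983). *Lef1* was most like *Hvcn1* (0.962) and *Rasgrp1* (0.936), and *Ets1* most like *Tubb4a* (0.969) and *Susd6* (0.877). *Sox4*, whose group means spanned only 0.10, had no close match (*Med12l* at 0.698 and *Casp4* at 0.636). All points share the 7 arrays and 3 groups, and the matches were picked as the highest, so these are descriptions.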

How the data were processed

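RNA of sorted cells was amplified, labelled with biotin and hybridised, per the labels' protocols. The authors deposited intensities on a linear scale (3.08 to 20875), made with RMA in Affymetrix Expression Console per the submitters' processing notes; versions: not given in the sources used here. This method equalises the distributions of arrays and compresses small differences of dim probe sets. The fixed design had expected log2 values, so log2 was taken first. Of 45037 probe sets, 34945 had 1 gene symbol in the platform annotation, 932 had several and 9160 were not listed. The brightest probe set stood for each gene and had to reach 82.0, the 50th percentile of all values, on 2 arrays; a group under it gives a fold as a bound. A model with 1 mean per group was fitted with limma 3.58.1 (R 4.3.3) to the 7 arrays (4 residual and 4.49 prior degrees of freedom), tested on simulated data, and adjusted by Benjamini-Hochberg over 10874 genes, or over 20360 probe sets where probe sets are counted. Levels are geometric means, and errors are standard errors. Their number limits the precision of the arrays. The members and lists were chosen with earlier results of these data known. Named genes were the factors, *Zbtb16*, up to 4 passing genes per list and comparison by size, and 2 genes per factor by likeness. Alternatives covered probe set choice, filter, scaling, array weights, variance trend, block, groups fitted, Y-linked expression and each array left out. Motifs were counted with Python 3.11.15.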

Additional observations from a re-analysis of the deposited data

How the results depend on the processing

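Of 486 combinations of a factor, a comparison and one of 18 alternatives, 460 kept direction and side of the threshold, 11 lost the call, 4 gained it and 11 changed sign. The number of factors past the threshold between Luxoid and stage 1 NKT rose from 0 to 1 (*Bach2*) with the replicate block, with an intensity trend and with a covariate for Y-linked expression. Same-numbered arrays deviated together from their group means (r = 0.259 to 0.439 over 10561 genes). In a group of 2 arrays the deviations are equal and opposite, so these r values are not independent of each other. No comparison has more than 2 shared numbers, so the numbers were not taken as pairs. The block raised the count of all genes for stage 1 NKT against CD4SP from 1621 to 2616. With single arrays left out, 0 factors passed between the NKT groups, 3 to 4 for stage 1 NKT against CD4SP and 4 to 6 for Luxoid NKT against CD4SP, and all-gene counts ranged from 55 to 178 (169 with all arrays), 643 to 1846 and 866 to 1726 (1831), in each case lowest without an array of a group of 2 (64 and 55, 643 and 749 without stage 1 NKT array 1 and 2; 856 and 714, 978 and 866 without CD4SP array 1 and 2; 103 between the NKT groups without Luxoid array 3); a lone array was assumed to vary like the other groups. Every sign change was of *Sox4* or *Lef1*, which passed nowhere in those settings. *Sox4*, Luxoid against stage 1 NKT, became -0.27 and -0.18 without stage 1 NKT array 2 and Luxoid array 1 (-0.27 to 0.48 over all arrays left out). *Sox4*, stage 1 NKT against CD4SP, became 0.33 and 0.01 (0.0145) without stage 1 NKT array 2 and CD4SP array 1 (-0.43 to 0.33). *Sox4*, Luxoid NKT against CD4SP, became -0.00420 with the mean of probe sets, -0.0207 with another quantile normalization, and -0.23 and -0.01 (-0.0108) without Luxoid array 1 and CD4SP array 2 (-0.23 to 0.21). *Lef1*, Luxoid NKT against CD4SP, became 0.03 (0.0268) with the mean of probe sets, 0.01 (0.0107) with median centring and 0.03 (0.0304) without Luxoid array 1 (-0.0778 to 0.03). *Lef1* passed for stage 1 NKT against CD4SP with the trend (adjusted p = 0.0348), and without a fit of all groups *Bcl11b* lost its Luxoid call (0.0558). With 2 or 3 arrays a group, the 95% intervals of *Ets1*, *Lef1* and *Sox4* against CD4SP reach 0 or close to it.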
